A study of Mus musculus with 4 samples.

Results

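TRAV14 receptors were T-cell receptors whose alpha chain was built from a TRAV14 variable segment, the family also called V alpha 2. They were chosen as all TRA contigs with a V segment name starting TRAV14-, TRAV14D- or TRAV14N- and without DV in the name, among the high-confidence, full-length, productive contigs of called cells. The rule found 770 of 13497 TRA contigs (5.7%), in 768 cells, since 2 cells carried a pair of TRAV14 chains. The libraries NOD 1, NOD 2, Tet2KO NOD 1 and Tet2KO NOD 2 held 406, 160, 121 and 83 of them, out of 6908, 3013, 1905 and 1671 TRA contigs. Single-cell receptor sequencing had been run on T cells from pancreatic islets, with 2 libraries from NOD mice, whose islets come under spontaneous autoimmune attack, and 2 from Tet2KO NOD mice, which lack the DNA-demethylating dioxygenase Tet2. Each library was a pool of islets from 4 to 6 mice. The Tet2-/- allele came from a B6 background and had been crossed to NOD for over 14 generations. The mice are given as 10 to 13 weeks old in the design text and as the same number of weeks after an event abbreviated BTM in the protocol, so the age was not settled here. The labels also mention transplant donors, so it is also unsettled whether transplanted mice were used. A contig table of receptors holds no Tet2 reading, so the genotype labels were not checked. No productive gamma or delta chain and no immunoglobulin contig occurred in any library.

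A T-cell receptor alpha chain is joined in the thymus from 1 V and 1 J segment, with bases trimmed and added at the joint, and the joint codes for CDR3, the loop that mostly contacts the peptide. CDR1 and CDR2 are fixed by the V segment and mostly contact the MHC molecule. The alpha locus can rearrange repeatedly on the same chromosome, replacing a first joint by one between a V segment further away and a J segment further 3′. TRAJ segments are numbered from the 3′ end, so a high TRAJ number lies close to the V segments. V alpha 2 is carried by the OT-I and OT-II transgenic receptors, paired there with V beta 5 (TRBV12), and is the target of a widely used antibody.

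The family comprised 5 names, with 128 chains of TRAV14-1, 161 of TRAV14-3, 183 of TRAV14N-1, 181 of TRAV14N-2 and 117 of TRAV14N-3. These names stood for separate sequences: the commonest V sequence of 267 bases accounted for 128, 150, 182, 179 and 116 of the chains in that order. TRAV14-3 had a second sequence in 10 contigs of 10 different rearrangements in 3 libraries, which differed from the commonest at 2 bases. Any pair of names differed at 7 to 19 of the 267 bases, fewest between TRAV14-3 and TRAV14N-3 and most between TRAV14-1 and TRAV14-3. The 90 bases that run from CDR1 through the second framework to CDR2 are shown since this stretch sets the names apart and codes for both germline loops. Capitals mark the 18 bases that differ among the 5.
TRAV14-1: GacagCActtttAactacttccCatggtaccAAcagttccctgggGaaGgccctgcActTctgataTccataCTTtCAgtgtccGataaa
TRAV14-3: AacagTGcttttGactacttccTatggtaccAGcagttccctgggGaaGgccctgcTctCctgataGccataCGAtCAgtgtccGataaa
TRAV14N-1: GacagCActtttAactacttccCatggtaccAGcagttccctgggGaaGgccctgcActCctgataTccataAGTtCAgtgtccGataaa
TRAV14N-2: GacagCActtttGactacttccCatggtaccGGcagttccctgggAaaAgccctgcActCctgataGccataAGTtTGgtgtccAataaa
TRAV14N-3: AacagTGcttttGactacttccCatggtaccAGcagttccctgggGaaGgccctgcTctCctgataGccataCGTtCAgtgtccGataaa
The deposited CDR1 and CDR2 loops were NSAFDY and IRSVSDK in both TRAV14-3 and TRAV14N-3, so these names shared the residues of their germline loops. Their residues differed outside the loops, and their CDR2 bases differed without changing a residue. TRAV14-1 and TRAV14N-1 shared the CDR1 DSTFNY and had the CDR2 loops ILSVSDK and ISSVSDK. TRAV14N-2 had DSTFDY and ISLVSNK, found in no other name.

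In the GRCm38 reference the family lies on the plus strand of chromosome 14, in an order that repeats in the D, the N and the unlettered copies. Trav14n-1 is at chr14:53166626-53167178, Trav14n-2 at chr14:53259578-53260179 and Trav14n-3 at chr14:53370077-53370575. Further towards the J segments follow Trav14-1 at chr14:53554022-53554558, Trav14-2 at chr14:53640701-53641225 and Trav14-3 at chr14:53763173-53763694. Each is annotated as a TR_V_gene, and the sequences above align to its V exon. Set against these reference exons, the contigs of TRAV14-1 had 1 mismatch to the gene of that name and those of TRAV14N-3 had 2. TRAV14-3 contigs had 6 mismatches to Trav14-3 and 7 to Trav14n-3, so that name rests on a single base. TRAV14N-1 contigs were equally far from Trav14n-1 and Trav14d-1, with 2 mismatches to each, because those reference exons are identical over 312 bases. The same holds for TRAV14N-2, with 10 mismatches to each of Trav14n-2 and Trav14d-2. Trav14-2 was next with 11, so the name TRAV14N-2 also rests on a single base against TRAV14-2. The D names did not occur among 13497 chains, which allows a share of up to 0.0222%, but a D copy and an N copy could not be told apart here for -1 and -2. The name TRAV14-2 was given to 1 of 1295 TRAV14 contigs of any flag. The 81 chains named TRAV14D-3-DV8, shared with the delta locus, were outside the rule. The mice are NOD and the reference is B6, so the place of each name in the NOD locus was not analysed here.

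The contig tables held 85137263 to 220516119 reads per library. Usage was counted over paired cells, which had 1 TRB, with the TRA of most UMIs (unique molecular identifiers, 1 per captured RNA molecule). A clonotype was an identical V, J and CDR3 nucleotide sequence of both chains, counted once. Of the 770 TRAV14 chains, 16 lay in cells without a TRB, 43 in cells with over 1 TRB and 65 beside a TRA of more UMIs, and the other 646 gave 505 clonotypes. The libraries had 3594, 1693, 899 and 993 clonotypes in all. A second TRA accompanied 19.9% of TRAV14 chains and 22.7% of the other TRA chains. Median UMIs per chain were 5 or 6 for TRAV14 and for other chains in each library. Of 13263 called barcodes, 81 occurred in more than 1 library, 10 of them with a TRAV14 chain, and 0 carried the same receptor in both. Nothing in the labels says that the pools shared animals, and p-values measure only the spread between pools.

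TRAV14 made up 7.21%, 7.15%, 7.34% and 5.94% of the clonotypes of NOD 1, NOD 2, Tet2KO NOD 1 and Tet2KO NOD 2. Their Wilson 95% intervals were 6.41 to 8.1%, 6.01 to 8.47%, 5.81 to 9.23% and 4.63 to 7.59%, which all overlap and, like all intervals here, cover counting error only. Tet2KO NOD 1 was the highest library and Tet2KO NOD 2 the lowest, so the NOD values lay inside the range of the Tet2KO NOD values. The NOD mean was 7.18% ± 0.042 and the Tet2KO NOD mean 6.64% ± 0.99 (SD, n = 2 each), and the difference of -0.535 percentage points had an exact two-sided permutation p of 1, where 0.333 is the smallest that 4 libraries allow. In the fit of 19 TRAV families, the family's log2 fold change, Tet2KO NOD over NOD, was -0.12 with a standard error of 0.14 (edgeR's quasi-likelihood test, adjusted p = 0.961). That fit called 0 of the 19 families (0%), with 1 at an unadjusted p under 0.05, and DESeq2 also called 0. Without Tet2KO NOD 2 the family's log2 fold change was 0.03 and the difference in share 0.165 percentage points, so that 1 library set the sign. Over all libraries TRAV14 ranked as number 5 of 24 families at a mean of 6.91%, next to TRAV9 at 8.07% and TRAV13 at 6.85%, and its spread between libraries (SD 0.65) covered the gap to TRAV13.

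Among the 5 names, TRAV14N-1 was the commonest, with a mean of 1.82% of clonotypes, and TRAV14-1 the rarest, with 0.937%. TRAV14-3 at 1.48%, TRAV14N-2 at 1.43% and TRAV14N-3 at 1.24% lay between them, and their library values overlapped. TRAV14N-1 stood at 1.86%, 1.83%, 1.67% and 1.91% in the library order above, a narrow range in which the genotypes overlapped. TRAV14-3 stood at 1.36%, 1.36%, 2% and 1.21%, with Tet2KO NOD 1 above the rest. TRAV14N-2 stood at 1.92%, 1.54%, 1.67% and 0.604%, the last from 6 clonotypes. TRAV14N-3 gave 1.22%, 1.42%, 1% and 1.31%, and TRAV14-1 gave 0.835%, 1%, 1% and 0.906%. None of the 5 was called between genotypes, where 1 of 124 V and J segments was (0.806%), and 5 of the 124 had an unadjusted p under 0.05. The log2 fold changes, Tet2KO NOD over NOD, were 0.09 (SE 0.46) for TRAV14-1, 0.22 (SE 0.38) for TRAV14-3, -0.04 (SE 0.34) for TRAV14N-1, -0.68 (SE 0.40) for TRAV14N-2 and -0.15 (SE 0.42) for TRAV14N-3 (edgeR's quasi-likelihood test, each adjusted p = 0.992). DESeq2 also called 0 of the 5. Without Tet2KO NOD 1 the values for TRAV14-3, TRAV14N-1 and TRAV14N-3 were -0.17, 0.05 and 0.02. TRAV14N-2 moved to -1.56 without Tet2KO NOD 1 and to -0.1 without Tet2KO NOD 2. Of the 46 other TRAV segments in that fit, 22 had a fold change above 0 and 24 below, 0 were called and 2 had an unadjusted p under 0.05. Their median log2 fold change was -0.02, against -0.04 for the 5 TRAV14 names and 0.01 for all 124 segments.

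Counted by cells, TRAV14-1 was the name whose genotypes separated most. It held 0.647% of the paired cells of NOD 1, 0.848% in NOD 2, 2% in Tet2KO NOD 1 and 1.22% in Tet2KO NOD 2, so the genotypes did not overlap. The difference of 0.86 percentage points had an exact permutation p of 0.333, the smallest possible, and an adjusted p of 1 over 12 such tests. Shares of cells failed to overlap for 30.6% of all 124 segments, and TRAV14N-1 was among them too, with a difference of -0.207 percentage points. A single clonotype of 21 cells made up most of the 32 TRAV14-1 cells of Tet2KO NOD 1. Without it that library stood at 0.695%, inside the range of NOD, and the difference was 0.21 percentage points.

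**Figure D1:**
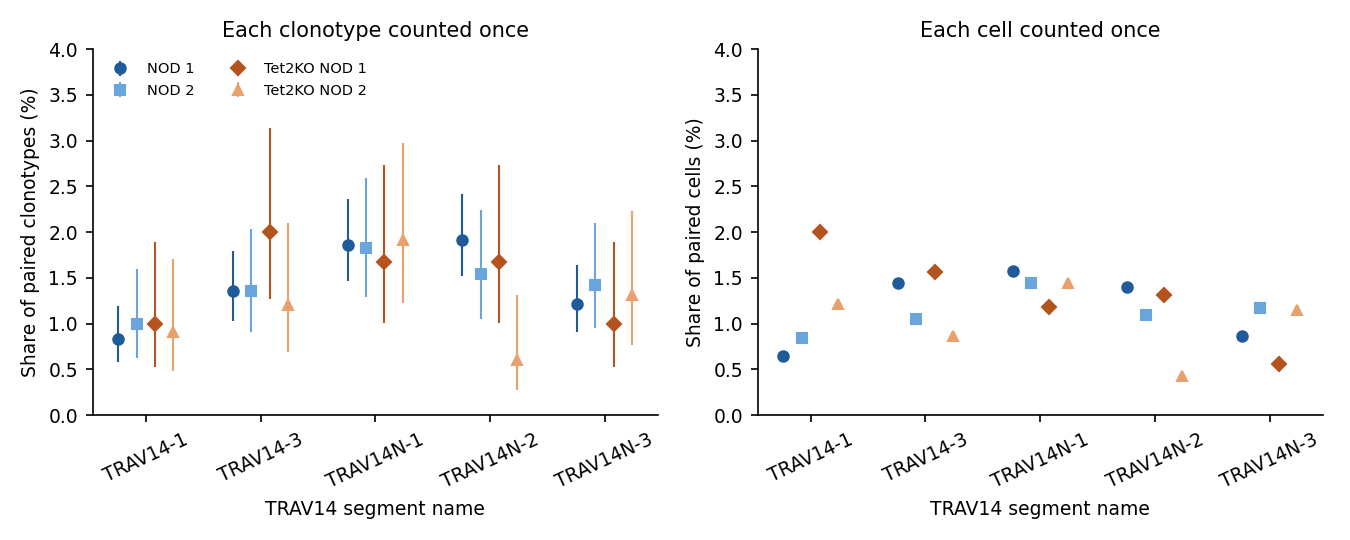
Share of each TRAV14 name among paired clonotypes (left, percent, bars are Wilson 95% intervals) and among paired cells (right, percent) in the 4 libraries. By clonotypes the genotypes overlapped for every name, and by cells TRAV14-1 was higher in both Tet2KO NOD libraries (1.22% and 2%) than in both NOD libraries (0.647% and 0.848%).

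The names differed among themselves in where along the J cluster they had joined. TRAV14-3 had the highest mean TRAJ number in each library, with 41.2, 40, 36.2 and 39.8, a mean of 39.3 ± 2.14 (SD, n = 4), so its joints lay closest to the V side. TRAV14-1 lay at the other end, with 27.1, 28, 23 and 28.9, a mean of 26.7 ± 2.6, the lowest in 3 libraries, while TRAV14N-2 was lowest in Tet2KO NOD 2. The values of TRAV14-3 and TRAV14-1 did not overlap. TRAV14N-1 averaged 33.2 ± 3.09, TRAV14N-2 29.1 ± 1.14 and TRAV14N-3 28.7 ± 1.95, and the library values of these 3 names overlapped. In shares, 58.8% of the 102 TRAV14-3 clonotypes used TRAJ58 to TRAJ40, against 26.2% of the 65 TRAV14-1, 36.4% of the 132 TRAV14N-1, 25.9% of the 116 TRAV14N-2 and 24.4% of the 90 TRAV14N-3 clonotypes. At the 3′ end, TRAJ20 to TRAJ2 served 40% of TRAV14-1 and 8.82% of TRAV14-3 clonotypes, and 18.2%, 24.1% and 22.2% of TRAV14N-1, TRAV14N-2 and TRAV14N-3. TRAV14-3 and TRAV14N-3 have the same germline CDR1 and CDR2 residues, yet their library values of mean TRAJ number did not overlap. Trav14-3 is the copy closest to the J segments in the B6 reference. Trav14-1, closer to the J segments there than any N copy, had the most 3′ partners, so the names' order by TRAJ was not their order in that reference. The pattern was noticed in these values and is given without a test.

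Nonproductive TRA contigs of the same cells, which make no receptor chain, held TRAV14 at a share whose interval overlapped that of the productive ones. TRAV14 was 5.72% of 4215 nonproductive contigs (Wilson 95% interval 5.06 to 6.46%) and 5.7% of productive ones (5.33 to 6.11%). By library the nonproductive shares were 5.47%, 6.34%, 5.2% and 6.14%. The names' shares of the family differed between the classes. Nonproductive entries were told apart by library, V, J, CDR3 bases and contig length, so a rearrangement can count more than once. Productive rearrangements were told apart without length, so the classes were counted by unlike units. TRAV14-1 was 18 of the nonproductive TRAV14 entries (8%) and 76 of the distinct productive rearrangements (13.3%). TRAV14N-3 was 19 (8.44%) and 100 (17.5%). TRAV14-3 made up 25.8% and 19.3%, TRAV14N-1 30.2% and 25.3%, and TRAV14N-2 27.6% and 24.6%. The mean TRAJ number over nonproductive entries was 41.7 for TRAV14-3 (58 entries) and 24.4 for TRAV14-1, at the same ends as in productive joints. TRAV14N-1, TRAV14N-2 and TRAV14N-3 had 35.3, 30.6 and 35.5. These means pool the libraries. With 4, 5, 9 and 0 entries per library, TRAV14-1 ran from 12 in Tet2KO NOD 1 to 49 in NOD 2, where it exceeded the 37.3 of TRAV14-3, so the order was not seen in each library. The 9 entries of Tet2KO NOD 1 weigh most on the low mean of TRAV14-1, and repeats of a joint among them were not excluded. Nonproductive contigs were not required to be full length.

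**Figure D2:**
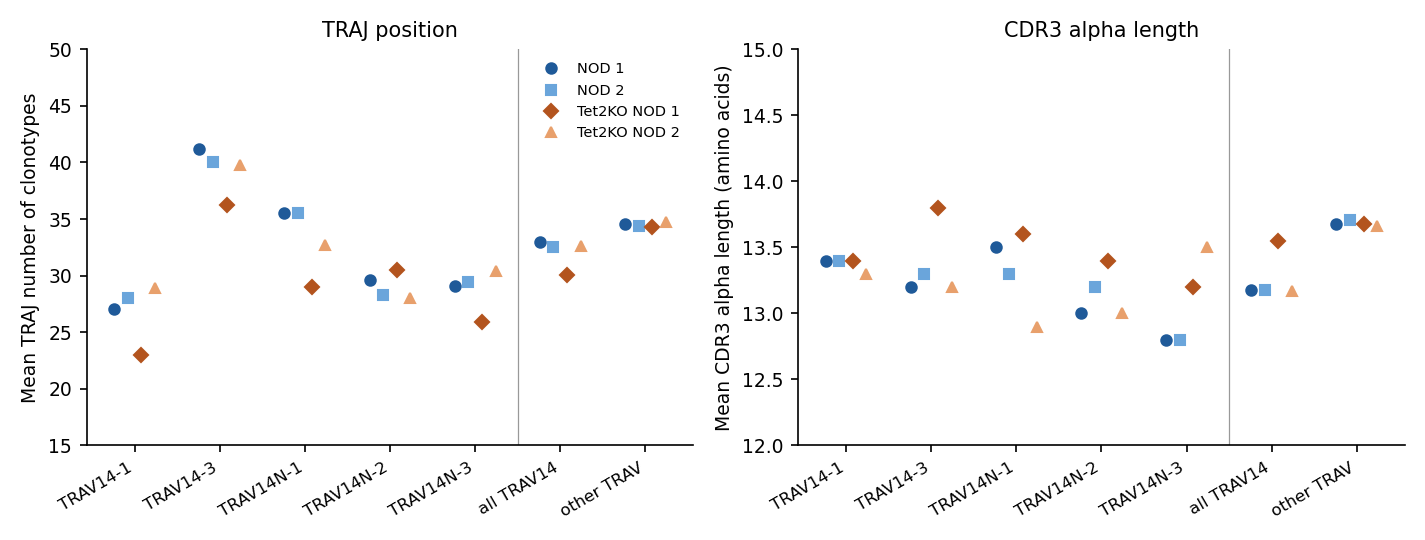
Mean TRAJ number (left) and mean CDR3 alpha length in amino acids (right) of the clonotypes of each TRAV14 name, of all TRAV14 and of all other TRAV clonotypes, 1 point per library. TRAV14-3 lies between 36.2 and 41.2 and TRAV14-1 between 23 and 28.9 in TRAJ number, while lengths of the names overlap.

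The next comparison set TRAV14 against all other clonotypes of the same library, which share its mice, its cells and its depth. As a family TRAV14 used slightly more 3′ J segments. Its mean TRAJ number was 32.95, 32.55, 30.06 and 32.58, against 34.54, 34.37, 34.29 and 34.73 for the others, lower in 4 of 4 libraries by 2.45 ± 1.21 on average (SD; results below are TRAV14 minus other). The exact two-sided sign-flip permutation p was 0.125, the smallest that 4 libraries allow, and 0.167 after adjustment over 4 such measures, so the test could not pass 0.05. TRAJ58 to TRAJ40 served 36.3%, 38%, 30.3% and 28.8% of TRAV14 clonotypes against 41.7%, 42.9%, 41.9% and 42.9% of others, a mean difference of -9 ± 4.57 percentage points. The middle segments TRAJ39 to TRAJ21 were higher in 4 of 4 libraries, at a mean of 45.5% against 38.9%, and TRAJ20 to TRAJ2 were higher in 3 of 4, at 21.2% against 18.7%. Adjusted over the 8 lists of partners compared, the exact p-values of the first pair of lists were 0.25 and that of the last 0.4. Between genotypes the TRAV14 mean of 32.8 ± 0.286 in NOD and 31.3 ± 1.78 in Tet2KO NOD gave an exact permutation p of 0.667. Among the 12 families with the most clonotypes, TRAV14 had the third-lowest mean TRAJ number, after TRAV9 and TRAV7, both at 31.8.

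TRAJ21 and TRAJ40 led the J partners of TRAV14 by mean share over the libraries. The 6 highest mean shares were TRAJ21 at 4.68%, TRAJ40 at 4.61%, TRAJ23 at 4.52%, TRAJ15 at 4.5%, TRAJ39 at 4.42% and TRAJ26 at 4.36%. By number of clonotypes TRAJ40 led with 26, then TRAJ31 with 25 and TRAJ49 with 22, while TRAJ21 had 20. Among 70 TRAJ, TRBV and TRBJ partners tested, 0 were called (0%), 3 had an unadjusted p under 0.05, and DESeq2 also called 0. TRAJ21 was the partner with the smallest p, with 3.09%, 4.13%, 3.03% and 8.47% of TRAV14 clonotypes against 1.32%, 2.48%, 1.92% and 1.28% of others. It was higher in 4 of 4 libraries, with a log2 fold change of 1.25 (SE 0.47, edgeR's quasi-likelihood test, unadjusted p = 0.00878, adjusted p = 0.501), from 20 clonotypes. TRAJ42 went the other way, with 1.54% and 1.65% in NOD 1 and NOD 2 and 0 of 66 and 0 of 59 in the Tet2KO NOD libraries, which allow shares of up to 4.55% and 5.08%. In other clonotypes it held 2.94%, 3.63%, 4.08% and 3.64%, so TRAV14 was lower in each library, with a log2 fold change of -1.48 (SE 0.60, adjusted p = 0.501). TRAJ53, known from insulin-reactive receptors of NOD mice, was also lower in 4 of 4 libraries, at 1.93%, 0.826%, 1.52% and 0% against 2.94%, 3.12%, 3.6% and 3.53% (log2 fold change -1.17, SE 0.59, edgeR's adjusted p = 0.866). The zero in Tet2KO NOD 2 allows up to 5.08%. TRAJ57 had a log2 fold change of -0.89 (SE 0.53) with libraries on both sides. Leaving out 1 library gave -2.18 to -1.23 for TRAJ42, -2.02 to -0.97 for TRAJ53, -2.02 to -0.43 for TRAJ57 and 0.96 to 1.5 for TRAJ21, and the lowest value of the first 3 came without NOD 1. In all, 8 of the 70 partners (11.4%) lay on the same side in 4 of 4 libraries, TRAJ21, TRAJ42 and TRAJ53 among them.

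**Figure D3:**
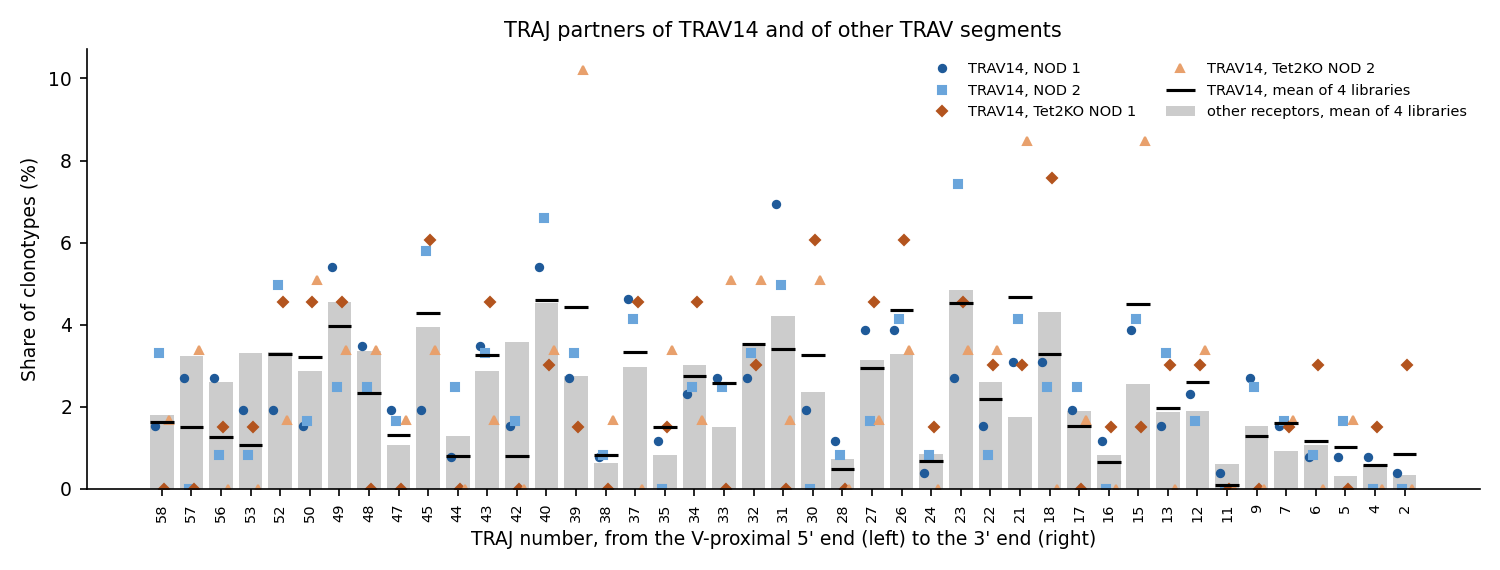
Share of clonotypes (percent) using each TRAJ segment, ordered from the V-proximal end on the left to the 3′ end on the right, for TRAV14 in each library (points), the mean of TRAV14 (black lines) and the mean of all other clonotypes (grey bars). TRAJ21 is higher and TRAJ42 and TRAJ53 lower than the other receptors in 4 of 4 libraries, none past the test, and the single points reflect only 59 to 259 TRAV14 clonotypes per library.

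By the shape of its TRAJ usage over 43 segments, TRAV14 was most like TRAV7 (Pearson r = 0.73), then TRAV4 and TRAV6 (r = 0.684 each), out of 11 families compared. These values describe mean shares over the same 4 libraries and carry no test. TRAV14 was joined to TRAJ18, the J segment of invariant NKT receptors, in 8, 3, 5 and 0 clonotypes of the 4 libraries.

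The mean CDR3 alpha length of TRAV14 receptors was below that of the other receptors in 4 of 4 libraries. It was 13.18, 13.18, 13.55 and 13.17 amino acids, against 13.68, 13.71, 13.68 and 13.66, a difference of -0.412 ± 0.186 residues (SD, n = 4; exact sign-flip permutation p = 0.125, the smallest possible, adjusted p = 0.167). Tet2KO NOD 1 showed the smallest gap, of -0.134. Compared only with clonotypes that used the same TRAJ, the gap was -0.323, -0.373, -0.177 and -0.282, with a mean of -0.289. TRAV8 had the shortest mean CDR3 alpha of the 12 largest families, 12.87 residues, and TRAV14 was the fourth shortest. Mean lengths were 13.4 for both TRAV14-1 and TRAV14-3 over the libraries, and TRAV14N-3 ranged from 12.8 to 13.5. On the beta side CDR3 lengths were 13.97, 14.02, 13.62 and 13.93 for TRAV14 and 13.98 to 14.03 for the others, a difference of -0.117 with an exact permutation p of 0.25.

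The joints themselves kept most of the germline V end. All 5 names end in the CDR3 start tgtgcagcaagtg, which reads Cys-Ala-Ala-Ser followed by an incomplete codon. Over 570 distinct TRAV14 rearrangements a median of 12 of these V bases was kept, and a median of 2 bases between V and J came from neither segment. In 96 rearrangements (16.8%) no such base was found. The share without one was 15.6%, 14.9%, 21.1% and 21.2% in the 4 libraries, and 10% for TRAV14N-3 to 20% for TRAV14N-2. Whatever the source of the bases, 330 of the 505 clonotypes (65.3%) had a CDR3 alpha beginning CAAS, from 53.8% in TRAV14-1 to 71.1% in TRAV14N-3. D segments do not take part in alpha joints. J ends were taken from the commonest base among these libraries' own rearrangements, which for 6 of 43 TRAJ differed from GRCm38. For TRAJ5, TRAJ16, TRAJ17, TRAJ32, TRAJ37 and TRAJ44 no GRCm38 end was available to compare. Their J end stopped where no base was common enough, so J bases beyond that point would count as untemplated.

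TRBV partners of TRAV14 resembled those of other receptors, and no beta segment passed the test. Its 5 most used names were TRBV12-2+TRBV13-2 at a mean of 10.5%, TRBV13-1 at 9.19%, TRBV19 at 8.84%, TRBV16 at 8.75% and TRBV1 at 7.37%, against 11.4%, 8.39%, 8.68%, 6.81% and 6.69% of other receptors. The joined name is kept as deposited. This ranking is by mean share, and by number of clonotypes TRBV5 with 44 and TRBV31 with 37 exceeded TRBV1 with 35. TRBV16 (V beta 11) stood at 9.65%, 7.44%, 6.06% and 11.9% of TRAV14 clonotypes, above the others in 3 of 4 libraries (log2 fold change 0.41, SE 0.24, edgeR's adjusted p = 0.866), and at -0.07 when each cell was counted. TRBV19 (V beta 6) varied most, at 8.88%, 15.7%, 9.09% and 1.69%, the last being 1 of 59 clonotypes. TRBV5 (V beta 1), the second commonest partner of other receptors at 10.5%, held 9.65%, 11.6%, 3.03% and 5.08% of TRAV14 clonotypes; it was picked after its values were seen and had a log2 fold change of -0.27 (SE 0.22, edgeR's adjusted p = 0.931). The V beta 8 family TRBV13, with the joined name, held 30.1%, 23.1%, 33.3% and 30.5% against 26.7 to 28.6%. The TRBV12 names alone (V beta 5), the partner of V alpha 2 in OT-I and OT-II, occurred in 12 TRAV14 clonotypes, 3.86% and 1.65% in NOD 1 and NOD 2 and 0% in both Tet2KO NOD libraries, where up to 4.55% and 5.08% are allowed. Other receptors held 2.46%, 2.23%, 3.36% and 2.03% of them.

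**Figure D4:**
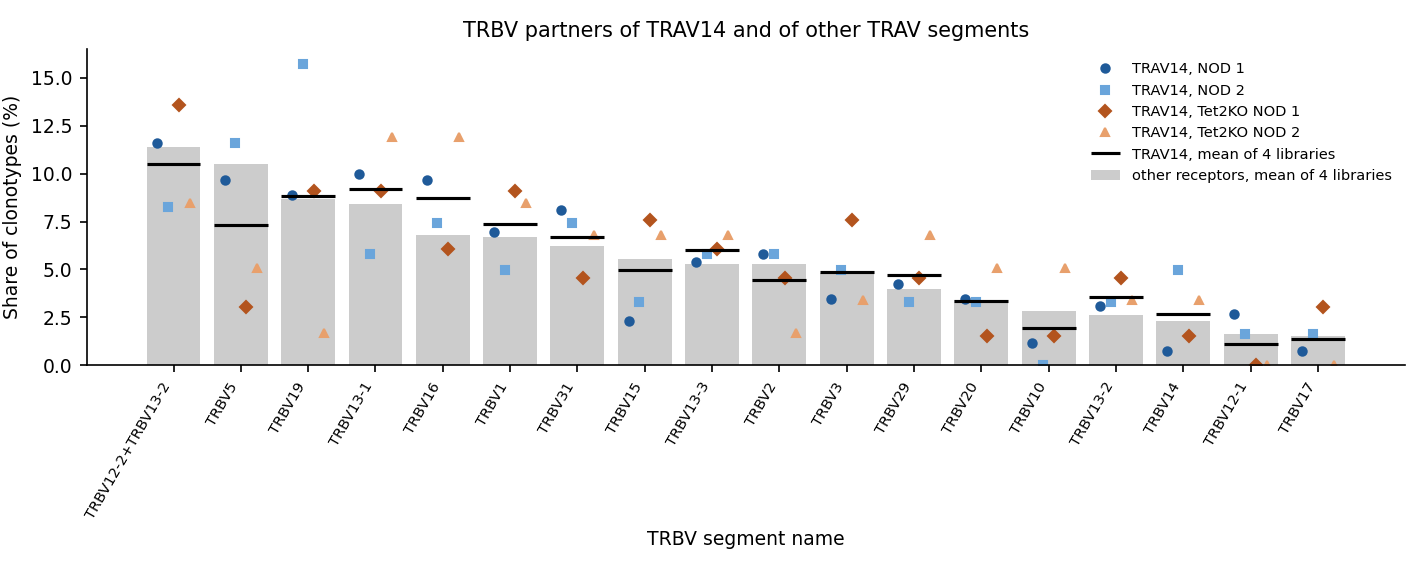
Share of clonotypes (percent) using each TRBV name with a mean of at least 1% in either class, for TRAV14 in each library (points), the mean of TRAV14 (black lines) and the mean of all other clonotypes (grey bars). The points of TRAV14 scatter around the bars, most widely for TRBV19, from 1.69% to 15.7%, and no TRBV passed the test.

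Among TRBJ, TRBJ2-7 was the commonest partner by mean share at 19.8%, then TRBJ2-5 at 13.1% and TRBJ1-1 at 10.7%. In other receptors they held 20.6%, 12.4% and 9.46%. By number of clonotypes TRBJ2-1, TRBJ2-3 and TRBJ1-4, with 49 each, exceeded TRBJ1-1 with 45. The TRBJ1 cluster as a whole held 35.9%, 31.4%, 31.8% and 44.1% of TRAV14 clonotypes and 34.2%, 31.4%, 31.5% and 31.9% of others. The mean difference of 3.57 percentage points came mostly from Tet2KO NOD 2, and its exact sign-flip permutation p of 0.125 became 0.25 over the 8 lists. TRBJ1-5 was the TRBJ with the smallest p, at 4.25%, 4.13%, 4.55% and 3.39% against 2.64%, 2.23%, 2.16% and 2.25%. It was higher in 4 of 4 libraries, and its log2 fold change of 0.77 (SE 0.45) had an adjusted p of 0.866 in edgeR's quasi-likelihood test. TRBV partners of the single names, picked out after the values were seen, included 18 of 116 TRAV14N-2 clonotypes with TRBV19 (15.5%) against 4 of 102 TRAV14-3 (3.92%), and 0 of 65 TRAV14-1 clonotypes with TRBV31, which allows up to 4.62%, against 13 of TRAV14N-2 (11.2%).

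The share of expanded clonotypes was lower for TRAV14 than for other receptors in 4 of 4 libraries, though the test could not pass 0.05 with 4 libraries. A clonotype was called expanded with 2 or more cells. In NOD 1 23 of 259 TRAV14 clonotypes were expanded (8.88%, Wilson 95% interval 5.99 to 13%), and in NOD 2 10 of 121 (8.26%, 4.55 to 14.5%). Tet2KO NOD 1 had 12 of 66 (18.2%, 10.7 to 29.1%) and Tet2KO NOD 2 had 4 of 59 (6.78%, 2.67 to 16.2%). Other clonotypes were expanded at 13.9%, 13.5%, 19% and 15.3%. The difference was -4.97, -5.29, -0.786 and -8.53 percentage points, a mean of -4.89 ± 3.18 (SD, n = 4; exact sign-flip permutation p = 0.125, adjusted p = 0.167), and Tet2KO NOD 1 stood apart with the smallest gap. As shares of cells, expanded clonotypes held 28.5%, 20.1%, 49.1% and 22.5% of TRAV14 cells and 45.1%, 41.8%, 54.9% and 40.1% of others. The largest other clonotypes had 76, 41, 43 and 22 cells, against 27, 5, 21 and 8 for TRAV14. The other clonotypes numbered 3335, 1572, 833 and 934, so these maxima come from sets of unlike size and are not read as a difference. Among the 12 largest families TRAV14 had the fourth-lowest expanded share, 10.5%, above TRAV12 at 9.03% and below TRAV5 at 19.8%, the family at the other end. By name, 13.8% of TRAV14-1, 11.8% of TRAV14-3, 10.6% of TRAV14N-1, 6.03% of TRAV14N-2 and 7.78% of TRAV14N-3 clonotypes were expanded. Within TRAV14 the NOD libraries averaged 8.57% ± 0.435 and the Tet2KO NOD libraries 12.5% ± 8.06 (SD, n = 2 each; exact permutation p = 1).

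**Figure D5:**
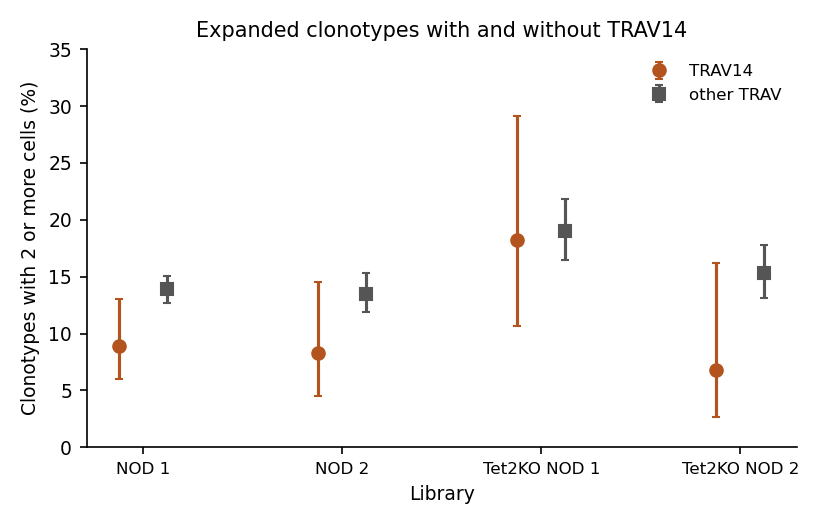
Share of clonotypes with 2 or more cells (percent, bars are Wilson 95% intervals) for TRAV14 and for all other receptors in each library. TRAV14 lies below the others in 4 of 4 libraries, with intervals that overlap in each library and the nearest values, 18.2% and 19%, in Tet2KO NOD 1.

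The largest TRAV14 clones each had their own CDR3 alpha and CDR3 beta, while some shared a TRAV14 name, a TRAJ or a TRBV. The first, with 27 cells in NOD 1 (0.485% of paired cells), joined TRAV14-3 to TRAJ43 as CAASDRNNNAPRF and carried TRBV3 with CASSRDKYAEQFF. A second, with 21 cells in Tet2KO NOD 1 (1.31%), joined TRAV14-1 to TRAJ18 as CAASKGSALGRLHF, with TRBV15 and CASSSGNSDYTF. Clones of 8 cells followed in NOD 1, where TRAV14N-1 with TRAJ52 were found beside TRBV3 and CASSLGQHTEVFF, and in Tet2KO NOD 2, where TRAV14-1 with TRAJ15 coded for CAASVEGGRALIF beside TRBV15 and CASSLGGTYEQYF. The next, of 6 cells in NOD 1, was TRAV14N-2 with TRAJ37, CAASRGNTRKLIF, beside TRBV31 and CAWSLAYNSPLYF. In NOD 2 the largest had 5 cells, 1 of TRAV14N-3 and 1 of TRAV14N-1, both with TRAJ32 and CDR3 alpha loops of 16 and 17 residues. The CDR3 alpha sequences of the 5 clones with the most cells are shown with the bases of neither V nor J in capitals.
TRAV14-3 TRAJ43, 27 cells: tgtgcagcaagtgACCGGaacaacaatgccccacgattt
TRAV14-1 TRAJ18, 21 cells: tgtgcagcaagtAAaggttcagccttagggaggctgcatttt
TRAV14N-1 TRAJ52, 8 cells: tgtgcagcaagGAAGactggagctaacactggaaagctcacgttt
TRAV14-1 TRAJ15, 8 cells: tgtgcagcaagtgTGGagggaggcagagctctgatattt
TRAV14N-2 TRAJ37, 6 cells: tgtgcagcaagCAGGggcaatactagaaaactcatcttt
The capitals number 5, 2, 4, 3 and 4 bases. The clones of 5 cells in NOD 2, not printed, had more such bases, 6 for TRAV14N-3 and 9 for TRAV14N-1. Such a base can still match its segment by coincidence, so the counts are what the longest match from each end left over.

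One TRAV14 clonotype was found in more than 1 library, the TRAV14-1 receptor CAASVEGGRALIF with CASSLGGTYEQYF, in 8 cells of Tet2KO NOD 2 and 1 cell of NOD 2. Its barcode was not shared between these libraries. A receptor of like build was present in 4 cells of NOD 1, with TRAV14-1 and TRAJ15 as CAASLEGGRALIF and TRBV15 with TRBJ2-7 as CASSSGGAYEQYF. Its alpha joint differs in the untemplated bases.
TRAV14-1 TRAJ15, NOD 2 and Tet2KO NOD 2: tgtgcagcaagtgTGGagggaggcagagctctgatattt
TRAV14-1 TRAJ15, NOD 1: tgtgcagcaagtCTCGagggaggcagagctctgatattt
The CDR3 alpha ending EGGRALIF occurred in 3 other clonotypes, with the segments TRAV4-2, TRAV7D-3 and TRAV5N-4, none of them beside TRBV15. TRAV14-1 used TRAJ15 in 10 of 65 clonotypes (15.4%), against 11 of 440 clonotypes of the other TRAV14 names (2.5%) and 2.55% of all receptors without TRAV14. The counts of TRAV14-1 were 4 of 30, 3 of 17, 0 of 9 and 3 of 9 in the library order above, where 0 of 9 allows up to 33.3%. TRBV15 accompanied 7 of the 65 (10.8%), against 2.73% of the other TRAV14 names and 5.21% of receptors without TRAV14. By library TRBV15 stood in 1 of 30, 2 of 17, 2 of 9 and 2 of 9, so NOD 1, at 3.33%, lay below the 4.65% of its receptors without TRAV14. The clonotype found in NOD 2 and Tet2KO NOD 2 counts in both libraries in each of these totals. Both pairings were picked out after their values were seen and are given without a test.

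While 1 whole receptor, identical in the bases of both CDR3, recurred between libraries, a larger number of CDR3 alpha sequences did. Of 452 distinct TRAV14 CDR3 alpha sequences of paired clonotypes, 25 (5.53%) occurred in more than 1 library, 5 of them in 3 libraries and 0 in all 4. Over all TRAV14 chains, including those outside the paired clonotypes, 33 of 512 occurred in more than 1 library and 1 in all 4. In 22 of the 25 each clonotype had a different TRB, in 18 the CDR3 was coded by more than 1 nucleotide sequence, and in 15 it was used with more than 1 TRAV14 name. Some of the 25, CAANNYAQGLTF and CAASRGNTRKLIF among them, also occurred with TRAV segments outside the family. How often other receptors share a CDR3 alpha between libraries is not given here, so the sharing is not read as particular to TRAV14. NOD 1 and NOD 2 shared 10, which is 4.12% of the 243 sequences of NOD 1 and 8.47% of the 118 of NOD 2, and the Tet2KO NOD libraries shared 1, which is 1.59% of 63 and 1.72% of 58. Pairs of libraries across genotypes shared 3 to 9. The libraries differ in size, and per 10000 pairs of sequences the NOD pair shared 3.49 and the Tet2KO NOD pair 2.74, against 4.04 to 5.88 across genotypes. Shared sequences had a median of 1 untemplated base and 45% had none (60 rearrangements), against a median of 3 and 13.2% of 448 rearrangements found in 1 library. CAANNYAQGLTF is shown since 3 names reached the same CDR3 with TRAJ26, in NOD 1, Tet2KO NOD 1 and Tet2KO NOD 2, and with a different TRBV each time.
TRAV14-1, Tet2KO NOD 1: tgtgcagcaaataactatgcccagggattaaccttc
TRAV14-3, Tet2KO NOD 2: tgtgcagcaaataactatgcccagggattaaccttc
TRAV14N-2, NOD 1: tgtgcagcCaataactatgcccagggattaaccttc
The first pair is identical and without an untemplated base, and the third has 1, in capitals. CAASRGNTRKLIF, the CDR3 alpha of the 6-cell clone above, recurred with TRAJ37 in NOD 2 and in Tet2KO NOD 1, there with TRAV14-3.
TRAV14N-2, NOD 1: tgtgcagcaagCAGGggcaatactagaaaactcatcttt
TRAV14N-2, NOD 2: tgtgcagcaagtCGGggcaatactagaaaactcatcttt
TRAV14-3, Tet2KO NOD 1: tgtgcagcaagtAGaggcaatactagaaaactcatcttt
These are 3 nucleotide sequences for 1 peptide loop, with the arginine codon made from different untemplated bases. Their 3 clonotypes carried only 2 CDR3 beta sequences, with the names TRBV14 and TRBV31. A CDR3 beta thus recurred beside this loop in 2 libraries, though not as a clonotype of identical bases. The other CDR3 alpha found in 3 libraries among paired clonotypes were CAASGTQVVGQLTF with TRAJ5, a TRAJ45 joint and another TRAJ37 joint, of which the last pair is shown in its forms without an untemplated base.
TRAV14-3 and TRAV14N-3, TRAJ45: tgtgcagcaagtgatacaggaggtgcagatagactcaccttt
TRAV14-1 and TRAV14N-3, TRAJ37: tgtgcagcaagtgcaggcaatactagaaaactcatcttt

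Over all chains this TRAJ37 joint was the CDR3 alpha present in all 4 libraries, with TRAV14N-3 in NOD 1 and NOD 2 and with TRAV14-1 in Tet2KO NOD 1 and Tet2KO NOD 2.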

How the data were processed

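The deposited tables hold 1 assembled contig per line with its read count and UMI count as whole numbers, as the authors deposited them, per the file headers. Cell Ranger 7.0.1 and the build GRCm38 (mm10) are named in the submitters' processing notes. Which segment reference served for annotation is not given in the sources used. A name marks the nearest reference segment, and near-identical copies and NOD alleles can be misnamed. The contigs were not filtered further than by the flags named above, and doublets were limited by leaving out cells with over 1 TRB.

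Clonotypes per segment were tested with edgeR 4.0.16 (quasi-likelihood, R 4.3.3) over all 4 libraries, with the number of clonotypes as library size, no normalization factors and Benjamini-Hochberg adjustment over all features kept. Genotype fits kept features with at least 10 clonotypes in at least 2 libraries, and the partner fit, with library as a block, those with at least 50. Standard errors are approximate, derived from F. The fits were also run on simulated data, and the outcome is not given here. How often they would miss a true difference is therefore not stated. Single values were compared by exact permutation over the 6 assignments of libraries or over sign flips (scipy 1.17.1). Shares carry Wilson 95% intervals. Zero counts were read as allowing up to 3 counts. Reference V exons came from RefSeq's GRCm38 sequence, with gene coordinates from the GENCODE annotation of that build. J ends took the base found in a share of at least 0.6 of rearrangements, and otherwise the GRCm38 base where one was available.

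Named were every TRAV14 name, the 6 TRAJ, 5 TRBV and 3 TRBJ with the most TRAV14 clonotypes by mean share, the 3 higher and 3 lower partners of smallest p, the largest clonotypes, shared sequences and the 3 families most alike in TRAJ. Members, lists and rule were chosen with earlier results of these data known. Alternatives were DESeq2 1.42.0, TMM factors, no filter, counting cells, keeping cells with over 1 TRB, a TRA of at least 3 UMIs, leaving out TRAV/DV names, shared clonotypes or barcodes, single libraries, and set blocks.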

Additional observations from a re-analysis of the deposited data

Results flagged for a closer look

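For 4 of the 18 partner segments named by the rule, both NOD libraries lay on one side of 0 and both Tet2KO NOD libraries on the other in the share among TRAV14 clonotypes minus the share among other clonotypes, and the difference between genotypes was not tested. TRBJ2-5 had differences of 5.1 and 4.2 percentage points in NOD 1 and NOD 2 and of -1.7 and -4.92 in Tet2KO NOD 1 and Tet2KO NOD 2, so the genotypes stood -7.96 points apart (Tet2KO NOD minus NOD). In the same library order TRAJ40 had 1.75, 2.86, -2.01 and -2.28, with the genotypes -4.45 points apart. TRBJ2-7 had -4.1, -1.1, 1.9 and 0.2, or 3.65 points apart, and TRBV1 had -0.01, -1.15, 3.33 and 0.55, or 2.52 points apart. Over all 70 partners tested, 12 (17.1%) had this pattern, so 8 partners not named by the rule had it too, and nothing is read from its occurrence in these 4. The Tet2KO NOD values rest on 66 and 59 TRAV14 clonotypes.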

How the results depend on the processing

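Across the alternatives, 87 values of the main comparisons kept their direction and side of the threshold, and 5 changed sign and 1 count moved. With each cell counted, the family's log2 fold change between genotypes was 0.02 and the difference in share 0.081 percentage points. Leaving out 1 library gave 0.165 to -1.24 points, -0.27 to 0.03 for the log2 fold change, and 0 to 1 called families, the 1 being TRAV12 without Tet2KO NOD 2; the library left alone in its genotype was assumed to vary like the others. No TRAV14 name and no partner was called in any alternative run. The set numbers were not shown to pair the libraries (correlation of deviations -0.167 over 124 segments); within set 1 and set 2 the difference in share was 0.135 and -1.21 points, and with sets as a replicate block the log2 fold change was -0.10, with no call. A crossed pairing, chosen after seeing the data, called 0 families and 0 TRAV14 names. Without single libraries, the gaps to other receptors were -2.74 to -1.86 in TRAJ number, -0.505 to -0.375 residues and -6.26 to -3.68 points expanded.

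Single segments, none past the test, changed sign as follows, in log2. With each cell counted TRAV14-3 was at -0.04, TRBV16 at -0.07, TRAJ40 at -0.06, TRBV19 at -0.32, TRBV1 and TRBJ2-5 at -0.19 and TRBJ1-1 at 0.12. With at least 3 UMIs TRBV12-2+TRBV13-2 was at 0.06, TRBV13-1 at -0.25 and TRBJ1-1 at 0.04. With DESeq2 TRBV13-1 and TRBV1 were at -0.04 and TRBV19 at -0.06, and with TMM factors TRBV13-1 was at -0.06 and TRBV1 at -0.09. Keeping cells with over 1 TRB put TRBV1 at -0.01. Leave-one-out ranges that crossed 0 were -0.17 to 0.55 for TRAV14-3, -0.15 to 0.05 for TRAV14N-1, -0.36 to 0.02 for TRAV14N-3, -0.54 to 0.19 for TRAJ23, -0.01 to 0.74 for TRAJ39, -0.04 to 0.26 for TRBV13-1, -0.09 to 0.37 for TRBV19, -0.05 to 0.15 for TRBV1 and -0.27 to 0.36 for TRBJ1-1. Among those that did not cross 0, TRAV14N-2 ran from -1.56 to -0.1, TRAV14-1 from 0.02 to 0.17 (without each Tet2KO NOD library; it was below the count filter without each NOD library), TRAJ40 from 0.09 to 0.47, TRAJ26 from 0.16 to 0.47 and TRAJ15 from 0.44 to 0.89. The causes were not tested. Depth limits the Tet2KO NOD libraries most, where a segment in 0 of 59 or 66 TRAV14 clonotypes could hold up to 5.08% or 4.55%.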

Other observations

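The semi-invariant receptor types, looked for as a check of what the islet T cells held, were rare. TRAV11 with TRAJ18, the invariant NKT pairing, occurred in 11, 5, 3 and 5 clonotypes of NOD 1, NOD 2, Tet2KO NOD 1 and Tet2KO NOD 2. TRAV1 with TRAJ33, the MAIT pairing, occurred in 1, 2, 0 and 2. Contigs outside called cells held TRAV14 at 5.93%, 4.5%, 5.19% and 5.85% of their productive TRA chains.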
